A study of Mus musculus with 12 samples.

Results

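Casq1, Cckar, Plekhb1, Vit, Tlcd4, Pdpn, Tgfb3 and P3h2 are 8 of the 17097 mouse genes measured in embryonic brain tissue. They were selected on the measured log2 changes of both experiments, because their values were higher after loss of Nf2 and changed less when YAP was overexpressed. Within the 35 genes that limma called higher with Nf2 knockout, these 8 were exactly the ones with no call in the YAP comparison. Both comparisons, and the difference between them, therefore chose the genes, and the values of the 8 genes in them are given as a description without a test. They came from 9 probe sets, 2 of them for Tlcd4 and 1 for each of the other 7 genes.

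The Nf2 knockout arrays (3) held dorsal telencephalon at E13.5 from Nf2F/F;Emx1-Cre embryos, in which both floxed copies of Nf2 are removed wherever Emx1-Cre is active. The Nf2 control arrays (3) held the same tissue from Nf2F/+;Emx1-Cre embryos, so the controls carried the Cre as well and kept 1 working copy. The YAP overexpression arrays (3) held forebrain and midbrain at E11.5 from TetO-YAP1;Nes-rtTA embryos. The transgene encodes YAP1-S127A, a mutated YAP that escapes a Hippo phosphorylation site, and Nes-rtTA switches it on in Nestin-expressing progenitors when doxycycline is present. Dams received doxycycline food (200 mg/kg) from E7.5. The YAP control arrays (3) came from embryos with Nes-rtTA alone. All embryos were of mixed genetic background, and cells outside the Cre or rtTA lineages, such as vessels, blood and meninges, remained in both dissections. Nothing in the labels ties the arrays of a group to separate embryos, and the error given here is the spread among arrays, part of which may be technical.

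Nf2 encodes Merlin, a relative of the ezrin, radixin and moesin proteins that acts at the cell cortex and activates the Hippo kinases. Those kinases keep the co-activators YAP and TAZ out of the nucleus. When they are inactive, YAP and TAZ bind TEAD factors and raise genes such as Ccn1 and Ccn2. Merlin also has partners outside the Hippo pathway, among them small GTPase signalling and receptors at the cell surface.

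Levels are log2 intensities, so a difference of 1 is a doubling. The experiments appear to have been normalized separately, with array medians from 4.3 to 4.42 for Nf2 and from 5.03 to 5.1 for YAP. Levels were therefore compared only within an experiment. Nf2 itself averaged 8.15 in knockouts and 8.53 in controls, a change of -0.38 (SE 0.09) that limma did not call (adjusted p = 0.246), and whether its probes lie in the deleted part was not determined. Dorsal telencephalon genes read high on the Nf2 arrays, with a mean over 7 of them between 9.77 and 9.88 on knockout arrays and between 9.85 and 9.90 on control arrays. With YAP overexpression all 7 fell (median -0.69), with a mean of 8.35 to 8.64 on overexpression arrays and 9.17 to 9.47 on YAP control arrays, and the part of this in the YAP values of the 8 genes was not tested. The 4 measured midbrain markers averaged 2.94 to 3.00 on knockout arrays and 2.96 to 3.04 on control arrays, at the level of the background probe sets described further on.

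RefSeq (GRCm38.p6) gave a promoter window for 4 of the 8 genes, Casq1, Plekhb1, Tlcd4 and Pdpn, in 6 windows that reach from 250 bases before a start site to 50 after it. The upstream 250 bases of Casq1 and of Pdpn are shown because these genes mark opposite ends of the set, Casq1 lying close to background at E11.5 and Pdpn being the brightest gene. Both are written 5′ to 3′ on the minus strand, the strand of the gene. Casq1 lies at chr1:172219896-172220145 and Pdpn at chr4:143299565-143299814.
Casq1: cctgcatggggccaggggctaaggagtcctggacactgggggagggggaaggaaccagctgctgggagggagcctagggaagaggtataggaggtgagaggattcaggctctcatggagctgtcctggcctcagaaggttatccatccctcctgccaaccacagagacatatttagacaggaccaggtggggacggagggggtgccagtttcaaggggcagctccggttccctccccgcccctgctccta
Pdpn: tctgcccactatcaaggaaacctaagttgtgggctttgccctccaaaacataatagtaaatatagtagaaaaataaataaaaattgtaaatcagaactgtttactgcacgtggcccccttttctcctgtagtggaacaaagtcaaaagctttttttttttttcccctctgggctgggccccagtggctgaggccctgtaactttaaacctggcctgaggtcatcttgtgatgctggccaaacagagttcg
Neither sequence has capitals, since neither searched motif occurs in it. The motifs were GGAATG, the core bound by TEAD factors, and TGANTCA, the AP-1 site, each on both strands, and the letters of one do not contain the other. None of the 6 windows held either one. Of all 32851 windows of 300 bases, 14.7% held GGAATG and 7.81% held TGANTCA. These letters are absent from these windows, and enhancers further away were not examined. The upstream bases were 61.6% G or C for Casq1 and 43.2% for Pdpn.

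Described together, the genes encode proteins of the cell surface, the matrix and the membrane systems inside the cell. All 8 were called higher with Nf2 knockout, where 0.205% of all genes were called higher and 0.0468% lower (0.252% in all), and none was called with YAP overexpression, where 6.31% of all genes were called, 2.67% higher and 3.64% lower. Both counts follow from how the genes were chosen. Their log2 changes with Nf2 knockout ran from 0.50 to 1.25 with a median of 0.79, and those with YAP overexpression from -0.10 to 0.57 with a median of 0.11. The median over all genes was -0.00 in the Nf2 comparison and -0.01 in the YAP comparison. In the Nf2 experiment every knockout array lay above every control array for all 8 genes, a pattern found in 6.6% of all genes. In the YAP experiment 3 of the 8 showed such a separation with overexpression higher, against 9.72% of all genes.

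**Figure D1:**
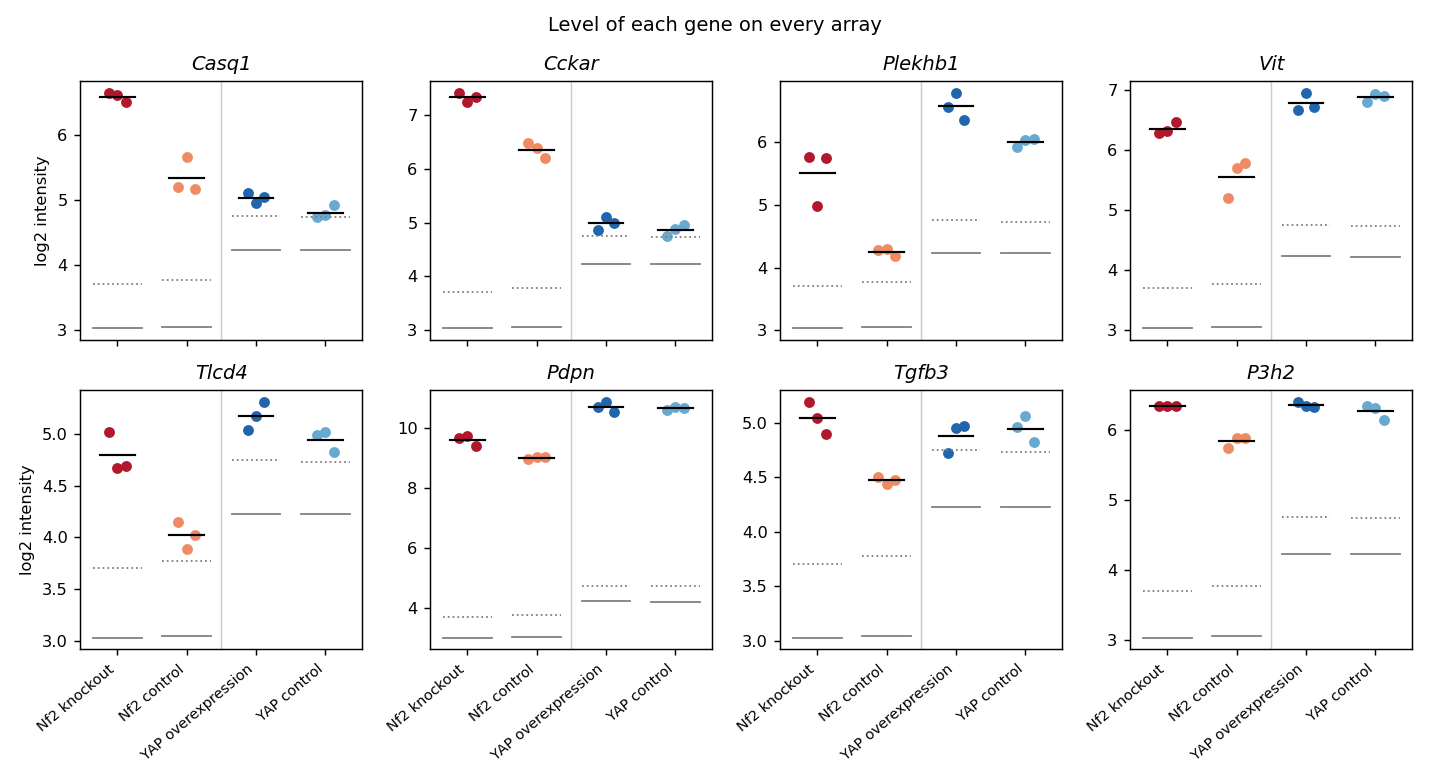
Log2 intensity of each of the 8 genes on every array (points) with group means (black bars); the grey line is the median of 86 chemoreceptor probe sets and the dotted line their 95th percentile, averaged over the group's arrays. All knockout arrays lie above all Nf2 control arrays in each panel, while Casq1, Cckar, Tlcd4 and Tgfb3 lie near the dotted line in both YAP groups.

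Among the genes of secreted and matrix proteins, Tgfb3 encodes a TGF-beta ligand that is stored in the matrix in latent form. Tgfb3 read 5.19, 5.04 and 4.90 on the knockout arrays and 4.50, 4.44 and 4.48 on the Nf2 control arrays. The groups did not overlap, and the change was 0.57 (SE 0.10), or 1.48-fold. With YAP overexpression Tgfb3 read 4.72, 4.95 and 4.97, against 4.96, 5.06 and 4.82 in YAP controls. These groups overlapped, with a change of -0.07 (SE 0.10).

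Vit encodes vitrin, a matrix protein with von Willebrand factor A domains that was described in the developing spinal cord as akhirin. Vit read 6.29, 6.33 and 6.47 on the knockout arrays and 5.20, 5.70 and 5.79 on the Nf2 control arrays. The change was 0.80 (SE 0.14), or 1.74-fold, with 1 control array lower than the other two. YAP overexpression arrays read 6.67, 6.96 and 6.73 for Vit, against 6.81, 6.94 and 6.90 on YAP control arrays, overlapping ranges with a change of -0.10 (SE 0.14).

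P3h2 encodes a prolyl 3-hydroxylase that modifies collagens in the endoplasmic reticulum, collagen IV of basement membranes in particular. P3h2 read 6.34 on all 3 knockout arrays and 5.74, 5.89 and 5.89 on the Nf2 control arrays. This was the smallest of the 8 changes (0.50, SE 0.07, 1.41-fold), and the 3 knockout arrays agreed to 2 decimals. At E11.5 it read 6.40, 6.35 and 6.33 with YAP overexpression and 6.34, 6.31 and 6.15 in controls, a change of 0.09 (SE 0.07) with overlapping ranges.

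Of the cell surface proteins, Cckar is the A-type receptor for the peptide cholecystokinin, a G protein-coupled receptor. Cckar read 7.42, 7.24 and 7.35 on the knockout arrays and 6.48, 6.40 and 6.20 on the Nf2 control arrays. The change was 0.98 (SE 0.10), or 1.97-fold, and no array of one group came within 0.76 of the other group. At E11.5 Cckar read 4.86, 5.11 and 4.99 with YAP overexpression and 4.76, 4.89 and 4.96 in controls. The ranges overlapped and the change was 0.12 (SE 0.10).

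Pdpn encodes podoplanin, a mucin-type membrane glycoprotein that binds ezrin and moesin, found on choroid plexus, ependyma, meninges and lymphatic vessels. Pdpn was the brightest of the 8 genes in both experiments. It read 9.67, 9.74 and 9.42 on the knockout arrays and 8.96, 9.05 and 9.05 on the Nf2 control arrays, a change of 0.59 (SE 0.10), or 1.51-fold. In the YAP experiment it read 10.69, 10.87 and 10.54 with overexpression and 10.59, 10.71 and 10.68 in controls. The arrays of the YAP groups overlapped, and the change was 0.04 (SE 0.10).

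Of the genes acting inside the cell, Casq1 encodes calsequestrin 1, the calcium-storing protein of the sarcoplasmic reticulum in fast skeletal muscle. Casq1 read 6.64, 6.61 and 6.50 on the knockout arrays and 5.19, 5.66 and 5.16 on the Nf2 control arrays. The change was 1.25 (SE 0.12), or 2.37-fold, and the groups were 0.84 apart at their nearest arrays, the widest gap of the 8. In the YAP experiment Casq1 read 5.10, 4.95 and 5.05 with overexpression and 4.73, 4.76 and 4.92 in controls. Every overexpression array was above every control array there too, but the nearest pair differed by 0.03 and the change was 0.23 (SE 0.12).

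Plekhb1 encodes evectin-1, a membrane-anchored protein with a pleckstrin homology domain known from photoreceptors. Plekhb1 read 5.77, 4.99 and 5.75 on the knockout arrays and 4.28, 4.30 and 4.18 on the Nf2 control arrays. The change was 1.25 (SE 0.18), or 2.38-fold, and 1 knockout array lay well under the other two. In the YAP experiment Plekhb1 read 6.57, 6.79 and 6.36 with overexpression and 5.92, 6.04 and 6.06 in controls. These groups did not overlap either, and the change of 0.57 (SE 0.18, 95% interval 0.18 to 0.95) was the largest of the 8 in that experiment. Plekhb1 was called in the YAP comparison when Nf2 knockout replicate 2, the low array, was left out of the shared fit. It was called in no other setting, and the fit of the 6 YAP arrays alone, which also lacks that array, did not call it.

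Tlcd4, also known as Tmem56, encodes a multi-pass membrane protein with a TLC domain. Its brighter probe set read 5.02, 4.67 and 4.69 on the knockout arrays and 4.15, 3.89 and 4.02 on the Nf2 control arrays, a change of 0.77 (SE 0.11), or 1.71-fold. On the YAP arrays it read 5.04, 5.18 and 5.31 with overexpression and 4.99, 5.02 and 4.83 in controls, a change of 0.23 (SE 0.11) with a gap of 0.02 between the groups. The second probe set read 3.04, 3.22 and 3.01 on the knockout arrays and 3.21, 3.20 and 3.20 on the Nf2 control arrays. With YAP overexpression it read 4.36, 4.13 and 4.30, against 4.15, 4.29 and 4.22 in YAP controls. It did not show the rise with Nf2 knockout (-0.11, SE 0.09), and it lay at background on all 12 arrays, above between 37.2% and 67.4% of the chemoreceptor probe sets. The rise of Tlcd4 therefore rests on 1 probe set, and the mean of both gave 0.33, without a call.

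Where the difference between the Nf2 effect and the YAP effect was itself fitted, limma called 2 of the 8 genes, Casq1 (1.02, SE 0.17) and Cckar (0.86, SE 0.14), where 0.281% of all genes were called, 0.111% with the Nf2 effect above the YAP effect and 0.17% below. Neither was called with the replicate block, or without YAP overexpression replicate 1, YAP control replicates 2 or 3, Nf2 control replicate 3 or Nf2 knockout replicates 1 or 3 (0 of 8 each). Casq1 also lost its call without YAP control replicate 1, Nf2 control replicate 1 or Nf2 knockout replicate 2. Cckar also lost its call without Nf2 control replicate 2. In the settings where either call was lost, 21 to 37 of all genes were called, against 48 in the main fit. The other 6 had differences from 0.41 for P3h2 to 0.90 for Vit (SE 0.10 to 0.25) and were not called with all arrays. Vit was called without YAP overexpression replicate 2, where calls over all genes rose to 161 (0.942%). Plekhb1 was called without Nf2 knockout replicate 2, where 32 of all genes were called (0.187%). The genes were chosen with this difference known, so these counts are a description too and support nothing about it. The comparisons differ in age, region and kind of manipulation, which cannot be told apart. The 95% intervals of the YAP changes reached up to 0.49 for Casq1, 0.47 for Tlcd4, 0.33 for Cckar, 0.26 for Pdpn, 0.25 for P3h2, 0.20 for Vit and 0.14 for Tgfb3. A rise of up to that size with YAP was therefore within the error.

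**Figure D2:**
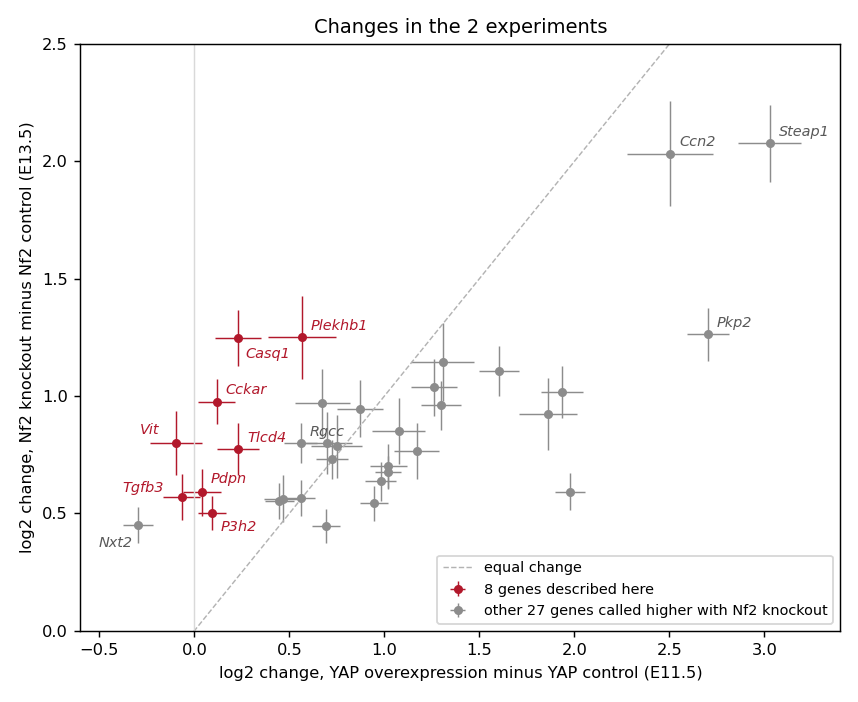
Log2 change with Nf2 knockout (y axis) against log2 change with YAP overexpression (x axis) for the 35 genes called higher with Nf2 knockout, with SE bars; red points are the 8 genes described here, grey points the other 27. The red points lie left of the dashed line of equal change, as do some grey ones, between -0.10 and 0.57 on the x axis.

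Of the other 27 genes called higher with Nf2 knockout, 26 were also called higher with YAP overexpression and 1, Nxt2, a relative of mRNA export factors, was called lower. Nxt2 changed by 0.45 (SE 0.08) with Nf2 knockout and by -0.30 (SE 0.08) with YAP, the most negative YAP change of the 35. The highest was that of Steap1, a metalloreductase family gene, with 2.08 (SE 0.16) for Nf2 and 3.03 (SE 0.16) for YAP. Just outside the limits that separate the 8 genes, Mcam, a cell adhesion molecule of the vessel wall, changed by 1.03 (SE 0.19) with Nf2 knockout and 0.40 (SE 0.19) with YAP, without a call in either. Pold2, a DNA polymerase delta subunit gene, followed with 0.32 (SE 0.06) and 0.16 (SE 0.06). Ptpn13 (0.56 with Nf2, 0.47 with YAP) and Steap2 (0.97 and 0.67) lay on the other side, with calls in both. Just inside, Tgfb3, Vit and Pdpn were nearest the Nf2 limit and Plekhb1 nearest the YAP limit.

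Distance from background was measured against 86 probe sets of olfactory, vomeronasal and taste receptors, taken to have little transcript in embryonic brain. The binding strength of probes differs, so a distance orders probe sets only roughly. In YAP controls at E11.5, Casq1 lay 0.58 ± 0.10, Cckar 0.64 ± 0.10, Tlcd4 0.72 ± 0.10 and Tgfb3 0.72 ± 0.12 above the receptor median (SD, n = 3). The 95th percentile of the receptors was between 4.68 and 4.80 on those arrays, and these 4 genes read between 4.73 and 5.06. They were thus close to the upper edge of background at E11.5. Plekhb1 (1.78 ± 0.07), P3h2 (2.04 ± 0.10), Vit (2.66 ± 0.06) and Pdpn (6.43 ± 0.06) lay above all 86 receptor probe sets on every YAP control array. With overexpression Casq1 lay 0.80 ± 0.08, Cckar 0.76 ± 0.12, Tlcd4 0.95 ± 0.12 and Tgfb3 0.65 ± 0.13 above the receptor median.

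On Nf2 knockout arrays the distance was 3.55 ± 0.04 for Casq1 and 4.31 ± 0.10 for Cckar, against 2.29 ± 0.24 and 3.31 ± 0.15 on Nf2 control arrays. Tlcd4 was nearest to background there, at 1.76 ± 0.18 on knockout arrays and 0.97 ± 0.17 on control arrays. Plekhb1 lay 2.47 ± 0.46 above the receptor median on knockout arrays and 1.21 ± 0.06 on control arrays. The brightest receptor probe set reached 6.18 on the Nf2 arrays and stood above several of the 8 genes there.

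**Figure D3:**
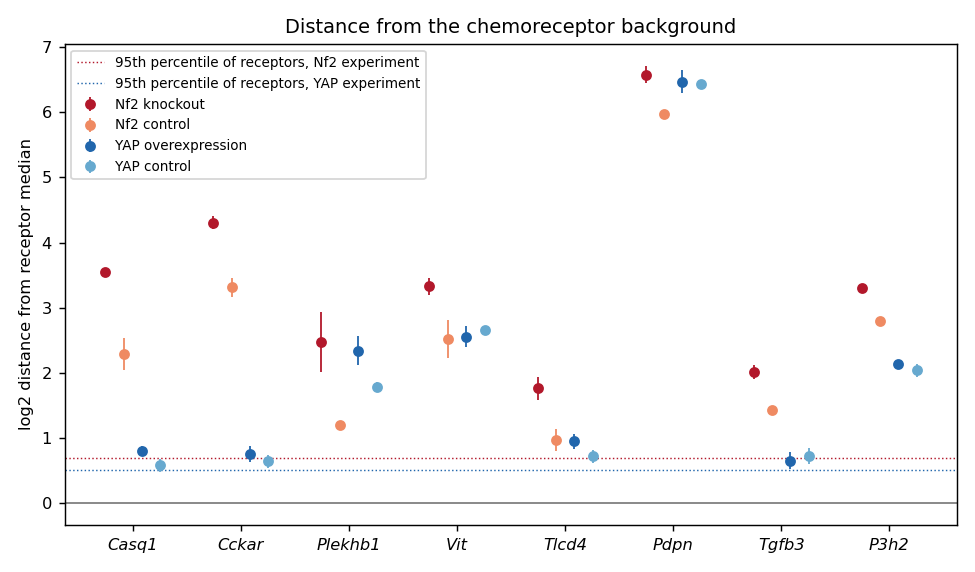
Mean distance of each gene from the median of 86 chemoreceptor probe sets on the same array, in log2 units, by group (bars are SD, n = 3); dotted lines are the receptors' 95th percentile in each experiment. Casq1, Cckar, Tlcd4 and Tgfb3 lie under 1 in both YAP groups, and Pdpn lies near 6 in all 4 groups.

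The nearest relatives examined, none of them for Pdpn, were not called with Nf2 knockout. Casq2, the cardiac calsequestrin, changed by 0.13 (SE 0.13, adjusted p = 0.959), and Cckbr, the other cholecystokinin receptor, by 0.02 (SE 0.11, adjusted p = 0.993). Cck, the ligand of both receptors, differed by -0.42 (SE 0.12, adjusted p = 0.375). Plekhb2 differed by 0.15 (SE 0.09, adjusted p = 0.897), and Coch, the matrix protein cochlin that resembles vitrin, by 0.47 (SE 0.14, adjusted p = 0.452). The other TGF-beta ligands Tgfb1 (-0.07, SE 0.11) and Tgfb2 (0.11, SE 0.14) were not called, nor were the collagen 3-hydroxylase family genes P3h1 (-0.12), P3h3 (-0.16) and P3h4 (0.03), or Tlcd1, Tlcd2, Tlcd3a, Tlcd3b and Tlcd5 (-0.19 to 0.08). Casq2, Cckbr and Tgfb1 read at 3.16 to 3.45 on average in knockouts, below the receptors' 95th percentile. The other relatives averaged above that percentile. Of these, Cck, Coch, Tgfb2, Tlcd1, Tlcd2, P3h1 and P3h3 averaged under 6.18, the highest receptor reading on the Nf2 arrays.

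**Figure D4:**
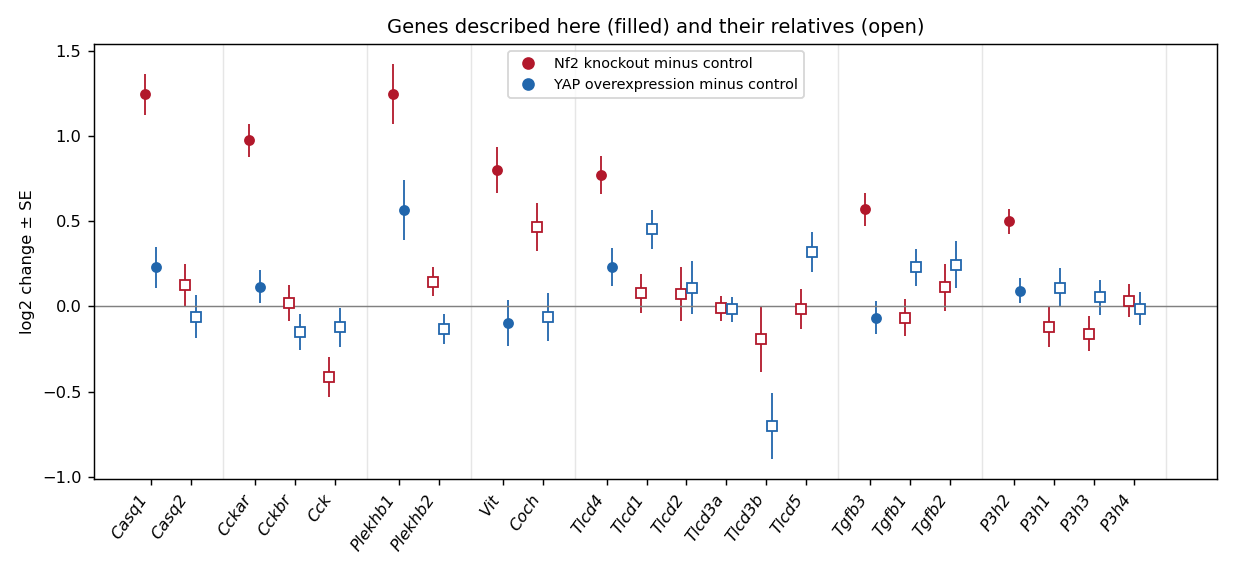
Log2 change with Nf2 knockout (red) and with YAP overexpression (blue), with SE from the fit, for 7 of the 8 genes (filled circles). Open squares are their nearest relatives and Cck, the ligand of Cckar. The red filled circles lie between 0.50 and 1.25 and the red open squares between -0.42 and 0.47.

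These relatives belong to 10 family and pathway lists, which held 94 measured genes besides the 8. With Nf2 knockout 1 of them rose, none fell (14 of 94 had an unadjusted limma p under 0.05) and 93 were not called. The median change of the 94 was -0.01, and 0.205% of all genes were called higher. The 1 that rose was Ccn2, listed as a target of TGF-beta and long used as a YAP reporter (2.03, SE 0.22, adjusted p = 0.00165). With YAP overexpression 10 of the 94 rose, none fell (25 had an unadjusted limma p under 0.05) and 84 were not called, with a median of 0.07, where 2.67% of all genes were called higher. Of all 17097 genes, 1066 had an unadjusted limma p under 0.05 with Nf2 knockout and 3353 with YAP overexpression. These unadjusted counts, and those of the lists, take in both directions.

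Among 12 genes of TGF-beta activation and receptors, none was called with Nf2 knockout (0 had an unadjusted limma p under 0.05), and Ltbp1, which holds latent TGF-beta in the matrix, rose with YAP overexpression (0.60, SE 0.14, adjusted p = 0.027). Of 10 SMAD and target genes, Ccn2 was the one called with Nf2 knockout. Smad7, the inhibitory SMAD induced by TGF-beta, differed by 0.34 (SE 0.11, adjusted p = 0.591). Smad3, a signal-carrying SMAD, differed by 0.15 (SE 0.06, adjusted p = 0.752) with Nf2 knockout and rose by 0.44 (SE 0.06, adjusted p = 0.00172) with YAP overexpression.

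Of 18 other collagen-modifying and collagen IV genes, none was called with Nf2 knockout (4 had an unadjusted limma p under 0.05). The main basement membrane collagen chains Col4a1 (-0.46, SE 0.13, adjusted p = 0.353) and Col4a2 (-0.46, SE 0.10, adjusted p = 0.142) had negative differences, while P3h2 was higher. With YAP overexpression the collagen hydroxylase genes P4ha2 (0.91, SE 0.23, adjusted p = 0.0385) and Plod2 (0.52, SE 0.14, adjusted p = 0.0449) rose. Of 7 podoplanin partners and ERM genes, Nf2 included, none was called with Nf2 knockout (3 had an unadjusted limma p under 0.05). Cd44, a hyaluronan receptor that binds podoplanin, differed by 0.49 (SE 0.19, adjusted p = 0.718) with Nf2 knockout and rose by 0.73 (SE 0.19, adjusted p = 0.0458) with YAP. Msn, the moesin gene, differed by 0.19 (SE 0.07, adjusted p = 0.633) with Nf2 knockout.

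Of 15 other TLC domain genes, none was called with Nf2 knockout (1 had an unadjusted limma p under 0.05), and Tram2 (0.67, SE 0.10, adjusted p = 0.00188), Tram1 (0.38, SE 0.08, adjusted p = 0.0132), both acting at the translocation channel of the endoplasmic reticulum, and Tlcd1 (0.45, SE 0.12, adjusted p = 0.0386) rose with YAP. Of 7 vitrin relatives, none was called with Nf2 knockout (1 had an unadjusted limma p under 0.05), and the matrilin gene Matn3 rose with YAP (0.59, SE 0.09, adjusted p = 0.00317). None of 19 other genes of calcium storage and release was called in either comparison (1 had an unadjusted limma p under 0.05 with Nf2 knockout and 3 with YAP).

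Several of the 8 genes are known from other cell types, and the markers of those types were measured on the same arrays. Fewer cells of a type and less RNA per cell cannot be told apart in such tissue samples. Skeletal muscle markers, relevant to Casq1, had a mean over 9 genes of 3.64 to 3.70 on knockout arrays and 3.68 to 3.75 on Nf2 control arrays. These means were near the receptors' 95th percentile. In knockouts Mylpf, Acta1 and Des averaged 5.39, 4.28 and 3.90, above that percentile. The other muscle markers averaged below it, among them Myod1, Myog and Ckm at 3.35, 3.51 and 3.48. Oligodendrocyte lineage markers, relevant to Plekhb1, had a mean over 7 genes of 3.70 to 3.77 on knockout arrays and 3.71 to 3.97 on control arrays. In knockouts they ran from Mog at 2.76, below the receptor median, to Sox10 at 4.07 and Cnp at 4.75, above the receptors' 95th percentile. For Pdpn, Tgfb3 and Vit, 13 markers of meninges and mesenchyme averaged 6.08 to 6.37 on knockout arrays and 6.28 to 6.44 on control arrays. For Pdpn, 7 choroid plexus markers averaged 7.23 to 7.56 on knockout arrays and 7.43 to 7.49 on control arrays. Those ranges overlapped, none of these markers was called with Nf2 knockout, and the median change was negative in all 4 lists (-0.06, -0.08, -0.10 and -0.11).

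In 3 other marker lists the mean levels of the Nf2 groups did not overlap, and none of their genes was called with Nf2 knockout. The 8 cortical hem markers averaged 6.18 to 6.49 on knockout arrays and 5.91 to 6.15 on Nf2 control arrays, without overlap. All 8 differences were positive (median 0.28), and 5 had an unadjusted limma p under 0.05, led by Bmp6 (0.72, adjusted p = 0.118) and Rspo2 (0.50, adjusted p = 0.115). The 6 microglial markers averaged 5.34 to 5.49 on knockout arrays and 5.12 to 5.13 on control arrays (median difference 0.27, 2 with an unadjusted limma p under 0.05). The 4 erythroid markers averaged 10.1 to 10.4 on knockout arrays and 10.6 to 10.7 on control arrays (median difference -0.35, 3 with an unadjusted limma p under 0.05). The 8 endothelial markers had a median difference of -0.23 with overlapping arrays and no call (3 with an unadjusted limma p under 0.05). The part of these cells in the values of the 8 genes was not tested.

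Likeness to the mean profile of the 8 genes was taken as the Pearson correlation over the 12 arrays after centring each experiment on its own mean, as a description. The 8 genes, which make up the profile, had r between 0.88 for Vit and 0.97 for Cckar. The 10 other genes with the highest r were Pold2 (0.90), the heat shock gene Hsp90aa1 (0.89), the macrophage surface gene Adgre1 (0.88), the lipid enzyme gene Napepld (0.88), Mcam (0.87), Pih1d1 (0.87), Ighv1-12 (0.87), the chaperone partner gene Dnajc1 (0.86), the ribosomal gene Rps15 (0.86) and Rgcc (0.86), a cell cycle regulator gene. Of these, Rgcc rose in both comparisons (0.80 with Nf2 knockout, adjusted p = 0.00165, and 0.56 with YAP overexpression, adjusted p = 0.00288), and the other 9 were called in neither, with Nf2 changes from 0.11 for Rps15 to 1.03 for Mcam. Computed over the 6 Nf2 arrays alone, the 10 genes most like the profile shared 1 gene with this list, so the list depends on which arrays are used.

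Of the 8 genes, all but Casq1 and Cckar lost their call in the Nf2 comparison without some single array, and calls over all genes shifted as well. Casq1 and Cckar were called with any of the 12 arrays left out. Leaving out an Nf2 knockout array left 4 (replicate 1), 4 (replicate 2) or 6 (replicate 3) of the 8 called. Over all genes 30, 20 or 29 were then called, against 43 with all arrays. Leaving out an Nf2 control array left 5 (replicate 1), 4 (replicate 2) or 4 (replicate 3), with 32, 25 or 23 called over all genes. Leaving out a YAP array left between 5 and 8, with 32 to 50 called over all genes. Same-numbered arrays of the Nf2 experiment deviated together, and with replicate number as a block 4 of the 8 were called (Casq1, Cckar, Vit and Tlcd4), and 21 of all genes, against 43 without it. With the 6 arrays of the experiment alone, Casq1 and Cckar were called, among 25 of all genes.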

How the data were processed

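RNA from 12 samples was measured on Affymetrix 3' arrays. The deposited values are log2 intensities with 2 decimals, 1 per probe set. RMA, Affymetrix Expression Console 1.1 and Partek 6.5 are named, without their roles, in the submitters' processing notes. The genome build is not given in the sources used here. The platform table gave 28898 of 45037 probe sets a single gene symbol and 551 several. Entrez IDs matched 28689 of the single-gene probe sets to a current symbol, and the other 209 kept the table's name. Where a gene had several probe sets, the brightest by mean stood for it, which left 17097 genes.

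Group means were estimated for the 4 groups together in limma 3.58.1 (R 4.3.3). P-values are two-sided, with Benjamini-Hochberg adjustment over all genes and calls at an adjusted p under 0.05. SE and intervals come from this fit (8 residual and 4.1 prior degrees of freedom). It was tested on simulated data with independent arrays, so that test does not cover pairing of arrays. The number of arrays limits the precision. The 8 genes, the marker and family lists and the naming rules were chosen with earlier results of these data known. Named were the 8 genes, their nearest relatives, called genes of the lists, the 10 genes most like the 8, the neighbours of the limits and, of the genes called higher with Nf2 knockout, those with the lowest and highest YAP change. Ccn1, Dusp3, Pkp2, Smad7, Col4a1, Col4a2, Msn and single marker genes were added after their values were seen.

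Replicate numbers come from the sample titles. Residuals of same-numbered arrays correlated at 0.271, 0.212 and 0.207 in the Nf2 experiment and at 0.0971, -0.195 and -0.204 in the YAP experiment. Differently numbered arrays correlated at -0.228 to -0.0001 in the Nf2 experiment and at -0.139 to 0.304 in the YAP experiment. Values of that size thus also arose between differently numbered arrays, so pairing in the Nf2 experiment was taken as possible and not as established. Alternatives were the arrays in the fit, a replicate block, scaling, probe set choice, a filter on dim genes, array weights, an intensity trend and each array left out.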

Additional observations from a re-analysis of the deposited data

Results flagged for a closer look

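Among the 35 genes called higher with Nf2 knockout, limma also called the difference between the Nf2 effect and the YAP effect for 6, in both directions. The Nf2 effect was above the YAP effect by 1.02 (SE 0.17) for Casq1, 0.86 (SE 0.14) for Cckar and 0.75 (SE 0.11) for Nxt2. Casq1 and Cckar were chosen with this difference known, so their calls are a description and no support for it. Both lay near background in the YAP experiment, and neither call was kept with the replicate block. The difference was negative, with the YAP effect above the Nf2 effect, for Ccn1 (-0.92, SE 0.16), the phosphatase gene Dusp3 (-1.38, SE 0.11) and the desmosome gene Pkp2 (-1.44, SE 0.16), all called higher in both comparisons.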

How the results depend on the processing

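Of all genes, the Nf2 comparison called 43, the YAP comparison 1078 and the difference of the effects 48. Of the 8 genes they called 8, 0 and 2. With the replicate block, the counts over all genes were 21, 689 and 21, and those of the 8 genes 4, 0 and 0. Same-numbered arrays deviated together in the Nf2 experiment alone, and pairing was not established. With the 6 arrays of an experiment alone, 25 genes were called for Nf2 (2 of the 8) and 361 for YAP, with fewer samples in the fit; the difference needs both experiments and was not run. Array weights gave 67 Nf2 calls, all probe sets in 1 fit gave 1704 YAP calls, and an intensity trend gave 119 for the difference. Leaving out genes below the median level removed 5 of the 8 genes and left 3 called for Nf2 and 0 for the difference. With each array left out in turn, Nf2 calls ran from 20 to 50 (4 to 8 of the 8), YAP calls from 529 to 1241 (0 to 1) and calls of the difference from 21 to 161 (0 to 3). The extremes came without Nf2 knockout replicate 2 (20), YAP control replicate 3 (529) and YAP overexpression replicate 2 (161). In YAP controls the median distance of the 8 genes from background was 1.25, and 0.39 against the array median instead. Of the 10 most alike genes, 1 was shared when only the 6 Nf2 arrays were used. The cause of these shifts was not tested in any setting. The Nf2 change of each of the 8 genes kept its sign in every setting in which it was fitted. The YAP change turned to -0.045 for Pdpn without YAP overexpression replicate 2 (0.04 with all arrays) and to 0.013 for Tgfb3 without YAP overexpression replicate 1 (-0.07 with all arrays). Signal over background limits the E11.5 values of Casq1, Cckar, Tlcd4 and Tgfb3.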
